A study of Homo sapiens with 16 samples.

Results

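The genes described here are the 8 E2F transcription factors, E2F1 to E2F8, and the 2 cyclin E genes, CCNE1 and CCNE2. They were chosen by gene symbol, each symbol matched 1 row, and the 10 genes are 10 of 57820 in the deposited table. All 10 also passed the filter on low values, which left 18149 genes. RNA was sequenced from SK-OV-3, an established human ovarian carcinoma line. Every culture carried a short hairpin RNA (shRNA). It was either a scrambled sequence with no intended target (shScramble) or 1 of 3 sequences against PRMT1, the enzyme that places most asymmetric dimethylarginine on proteins (shPRMT1 #1, #3 and #5). Each of these 4 populations was sampled without drug and after 24 h with 20 µM cisplatin, a platinum drug that crosslinks DNA. That makes 8 groups with 2 biological replicates each, 16 libraries of 1 cell line. The sources used here do not give the shRNA vector, the time since its delivery or whether a population was a clone or a pool.

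E2F factors bind DNA at genes needed for the start of DNA replication and for the S phase that follows. In resting cells the retinoblastoma proteins hold them in check. Cyclin E joins the kinase CDK2, which phosphorylates those proteins and releases the activating factors E2F1, E2F2 and E2F3. E2F4 and E2F5 act mainly as repressors together with the retinoblastoma relatives, and E2F6 represses through Polycomb-type complexes. E2F7 and E2F8 are the atypical members, which bind DNA without a DP partner, repress the same S phase genes and the activator genes themselves, and are in turn switched on by E2F1. Amplified CCNE1 and drug-induced stalling of replication forks are both well-studied themes in ovarian cancer.

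Library totals recovered from the deposited values ran from 12289319 to 16039782 reads, and the 10 genes held between 154 and 4948 reads in a library. PRMT1, the knockdown target, differed by -1.59 on the log2 scale (SE 0.22) in untreated shPRMT1 cells and by -1.61 (SE 0.22) under cisplatin. The carcinoma markers EPCAM, KRT7, KRT8, KRT18, KRT19 and ERBB2 lay between 13.5 and 66.4 RPKM (reads scaled to the length of the gene model and to the total of the library) in every library. With cisplatin EPCAM and ERBB2 were lower in shScramble cells (-0.61 and -0.43 on the log2 scale, adjusted p = 0.00483 and 0.0247) and in shPRMT1 cells (-0.54 and -0.29, adjusted p = 0.000115 and 0.00613). KRT18 was higher in shPRMT1 cells (0.20, adjusted p = 0.00284). Of these 6 markers, 4 were not called in shScramble cells and 3 were not called in shPRMT1 cells. Of 6 markers of other cell types, 5 were matched. PTPRC (leukocytes) reached at most 0.112 RPKM, CDH5 (endothelium) was at 0 in 7 libraries, and LYZ (macrophages) and DCN (stroma) reached at most 0.494 and 0.525 RPKM. COL1A1, a collagen gene of fibroblasts, ran from 3.15 to 31.3 RPKM and carried nearly all of the markers' summed level. That sum was 15.8 to 30.1 RPKM in untreated and 5.95 to 8.30 in cisplatin-treated shScramble libraries, 12.8 to 32.3 in untreated and 3.70 to 20.4 in treated shPRMT1 libraries, and the part of these marker differences in the cisplatin results was not tested. The upper end of the table is narrow: the highest value of any gene was 148 RPKM, 0.0592% of tested values passed 100 RPKM, and GAPDH measured 34.5 to 40.3 RPKM. Under cisplatin only 1.26% to 4.01% of tested genes were higher than E2F7 in the same library. Whether this narrow range shortens the differences of the most abundant genes was not tested.

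In untreated shScramble cells the highest level of the 10 genes belonged to E2F1, followed by E2F4 and E2F3. RPKM is a level per length of gene model, and on that scale levels of different genes are set side by side. Whether the narrow upper range of the table alters the order of genes or the ratios between them was not tested. E2F1 (ENSG00000101412.9, GRCh37 chromosome 20, 32263488 to 32274210, minus strand) measured 28.4 and 33.5 RPKM in the 2 replicates. E2F4 (ENSG00000205250.4, chromosome 16, 67226071 to 67232821, plus strand) measured 26.1 and 27.6 RPKM, and E2F3 (ENSG00000112242.10, chromosome 6, 20402397 to 20493941, plus strand) 22.4 and 20.6. These 3 ranges did not overlap. Below them lay E2F7 (ENSG00000165891.11, chromosome 12, 77415026 to 77459360, minus strand) at 12.01 and 10.4 RPKM and E2F8 (ENSG00000129173.8, chromosome 11, 19245609 to 19263167, minus strand) at 11.4 and 8.83. CCNE1 (ENSG00000105173.9, chromosome 19, 30302804 to 30315215, plus strand) was at 10.1 and 9.26 RPKM, and neighbours among these 3 genes overlapped. E2F6 (ENSG00000169016.12, chromosome 2, 11584500 to 11606297, minus strand), E2F5 and CCNE2 formed a further overlapping set between 5.97 and 7.03 RPKM. E2F2 (ENSG00000007968.6, chromosome 1, 23832921 to 23857712, minus strand) was lowest at 5.02 and 4.35 RPKM. The library kit does not mark strand. Genes above 1 RPKM overlap the CCNE2 model (NDUFAF6, INTS8 and RP11-347C18.5) and the E2F5 model (C8orf59), so the levels of CCNE2 and E2F5 may hold reads of these neighbours.

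Promoter windows of 300 bases, from 250 bases before to 50 bases after the start site, were at hand for 7 of the 10 genes (RefSeq, GRCh38.p14). They were searched on both strands for the 8-base E2F motif in the forms TTTCCCGC, TTTCGCGC, TTTGCCGC and TTTGGCGC, and for the 7-base forms that lack the first T and so lie inside the longer ones. Any 8-base form occurs in 3.315% of all 35116 promoters and any 7-base form in 12.966%. Of the 7 genes, 3 held an 8-base form, namely the activators E2F1, E2F2 and E2F3, and 5 held a 7-base form, with E2F6 and E2F7 added. The windows of these activators are shown because only they held an 8-base form, and that of E2F7 because its RNA differed most among the 10 genes with cisplatin in shScramble cells and with knockdown in untreated cells. Capitals mark the matches, 5′ to 3′ on the gene's strand.
E2F1, chr20:33686336-33686635, minus strand: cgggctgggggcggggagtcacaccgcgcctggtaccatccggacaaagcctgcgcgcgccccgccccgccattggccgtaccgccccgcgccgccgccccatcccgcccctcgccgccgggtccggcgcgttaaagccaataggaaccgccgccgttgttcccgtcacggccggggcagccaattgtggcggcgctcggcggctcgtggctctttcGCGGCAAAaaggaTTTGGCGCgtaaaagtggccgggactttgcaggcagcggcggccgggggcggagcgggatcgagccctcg
E2F2, chr1:23531184-23531483, minus strand: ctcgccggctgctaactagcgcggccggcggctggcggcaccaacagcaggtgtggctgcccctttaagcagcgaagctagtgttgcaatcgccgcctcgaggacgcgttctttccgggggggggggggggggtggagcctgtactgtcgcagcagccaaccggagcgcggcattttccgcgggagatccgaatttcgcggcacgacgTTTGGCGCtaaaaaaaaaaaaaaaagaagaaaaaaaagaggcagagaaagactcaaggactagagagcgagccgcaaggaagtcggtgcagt
E2F3, chr6:20401629-20401928, plus strand: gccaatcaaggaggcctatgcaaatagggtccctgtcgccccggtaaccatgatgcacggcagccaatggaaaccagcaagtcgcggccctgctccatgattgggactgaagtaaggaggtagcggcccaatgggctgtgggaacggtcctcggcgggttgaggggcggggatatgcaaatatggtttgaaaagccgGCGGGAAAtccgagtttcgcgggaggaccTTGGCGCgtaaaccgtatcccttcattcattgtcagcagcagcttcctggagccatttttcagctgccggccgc
E2F7, chr12:77065520-77065819, minus strand: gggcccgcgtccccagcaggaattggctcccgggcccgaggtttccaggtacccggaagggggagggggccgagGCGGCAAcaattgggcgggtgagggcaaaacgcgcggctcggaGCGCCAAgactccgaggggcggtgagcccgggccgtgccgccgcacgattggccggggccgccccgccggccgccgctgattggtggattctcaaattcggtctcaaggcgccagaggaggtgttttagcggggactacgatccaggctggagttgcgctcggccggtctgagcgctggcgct
In E2F1 the 2 matches began at positions -33 and -20 relative to the start site, read on opposite strands. The match in E2F2 began at -42. E2F3 held an 8-base match at -53 and a 7-base match at -24, and a further E2F3 window at a separate start site held none. The 2 matches in E2F7 were 7-base forms at -176 and -133, and the CCNE1 and E2F4 windows held neither form. A match describes letters in the window and says nothing about binding in these cells.

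Cisplatin raised cyclin E, both atypical factors and the activators E2F1 and E2F2 in shScramble cells. Of the 10 genes, 7 rose and none fell, where 30.2% of all tested genes were called, 15.5% higher and 14.7% lower. E2F7 rose most, to 4.01 times its untreated mean. E2F4 and E2F5, the repressors that work with the retinoblastoma relatives, did not pass the test. RNA was taken from whole cultures, so more cells in a given phase of the cycle and more RNA per cell cannot be told apart.

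Among the activators, E2F1 measured 51.1 and 56.7 RPKM under cisplatin against 28.4 and 33.5 without it, a log2 difference of 0.78 (SE 0.20, adjusted p = 0.0125). The treated and untreated libraries did not overlap. The call was lost when untreated replicate 1 of shScramble was left out (0.67, adjusted p = 0.0872), and likewise for cisplatin replicate 2 (0.71, adjusted p = 0.0835). E2F2 went from 5.02 and 4.35 to 16.5 and 15.9 RPKM, a log2 difference of 1.60 (SE 0.12, adjusted p = 3.47e-06). Both treated E2F2 libraries stood far above both untreated ones. E2F3 measured 22.4 and 20.6 RPKM untreated and 28.1 and 26.2 under cisplatin, a log2 difference of 0.32 (SE 0.12, adjusted p = 0.0732). Its libraries did not overlap, yet the test was missed, and with the replicate number as a block the adjusted p was 0.00212, in a fit that called 44.1% of all tested genes.

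Of the repressors, E2F4 measured 26.1 and 27.6 RPKM untreated and 30.02 and 31.5 under cisplatin, a log2 difference of 0.19 (95% interval -0.16 to 0.53, adjusted p = 0.418). E2F5 (ENSG00000133740.6, chromosome 8, 86089459 to 86129387, plus strand) measured 6.85 and 6.38 RPKM untreated and 6.22 and 5.38 treated, a log2 difference of -0.16 (95% interval -0.53 to 0.20, adjusted p = 0.515). Both intervals include 0, and they reach 0.53 upwards for E2F4 and -0.53 downwards for E2F5. E2F6 went from 7.03 and 6.47 to 8.32 and 9.20 RPKM, a log2 difference of 0.33 (SE 0.11, adjusted p = 0.0449). The groups did not overlap, but leaving out any of the 4 libraries ended this call, with adjusted p between 0.0732 and 0.230.

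The atypical factors moved further. E2F7 measured 12.01 and 10.4 RPKM untreated and 45.2 and 44.8 under cisplatin, a log2 difference of 1.92 (SE 0.11, adjusted p = 6.77e-07). E2F8 went from 11.4 and 8.83 to 24.1 and 21.8 RPKM, a log2 difference of 1.11 (SE 0.13, adjusted p = 8.16e-05), or 2.27 times the untreated mean. Neither gene's groups overlapped. The pair stood at nearly the same level without the drug, and after it E2F7 was at 1.88 to 2.06 times E2F8 in the same library.

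Cyclin E rose to about 3 times its untreated level. CCNE1 measured 10.1 and 9.26 RPKM untreated and 29.3 and 28.9 treated, a log2 difference of 1.50 (SE 0.10, adjusted p = 1.82e-06). CCNE2 (ENSG00000175305.12, chromosome 8, 95891997 to 95908906, minus strand) went from 6.86 and 5.97 to 18.3 and 18.9 RPKM, a log2 difference of 1.40 (SE 0.18, adjusted p = 0.000154). The ratio of CCNE1 to CCNE2 was 1.48 to 1.55 before and 1.53 to 1.61 after the drug. Under cisplatin the order of levels from highest to lowest was E2F1, E2F7, E2F4, CCNE1, E2F3, E2F8, CCNE2, E2F2, E2F6 and E2F5. No neighbours in that order overlapped.

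**Figure D1:**
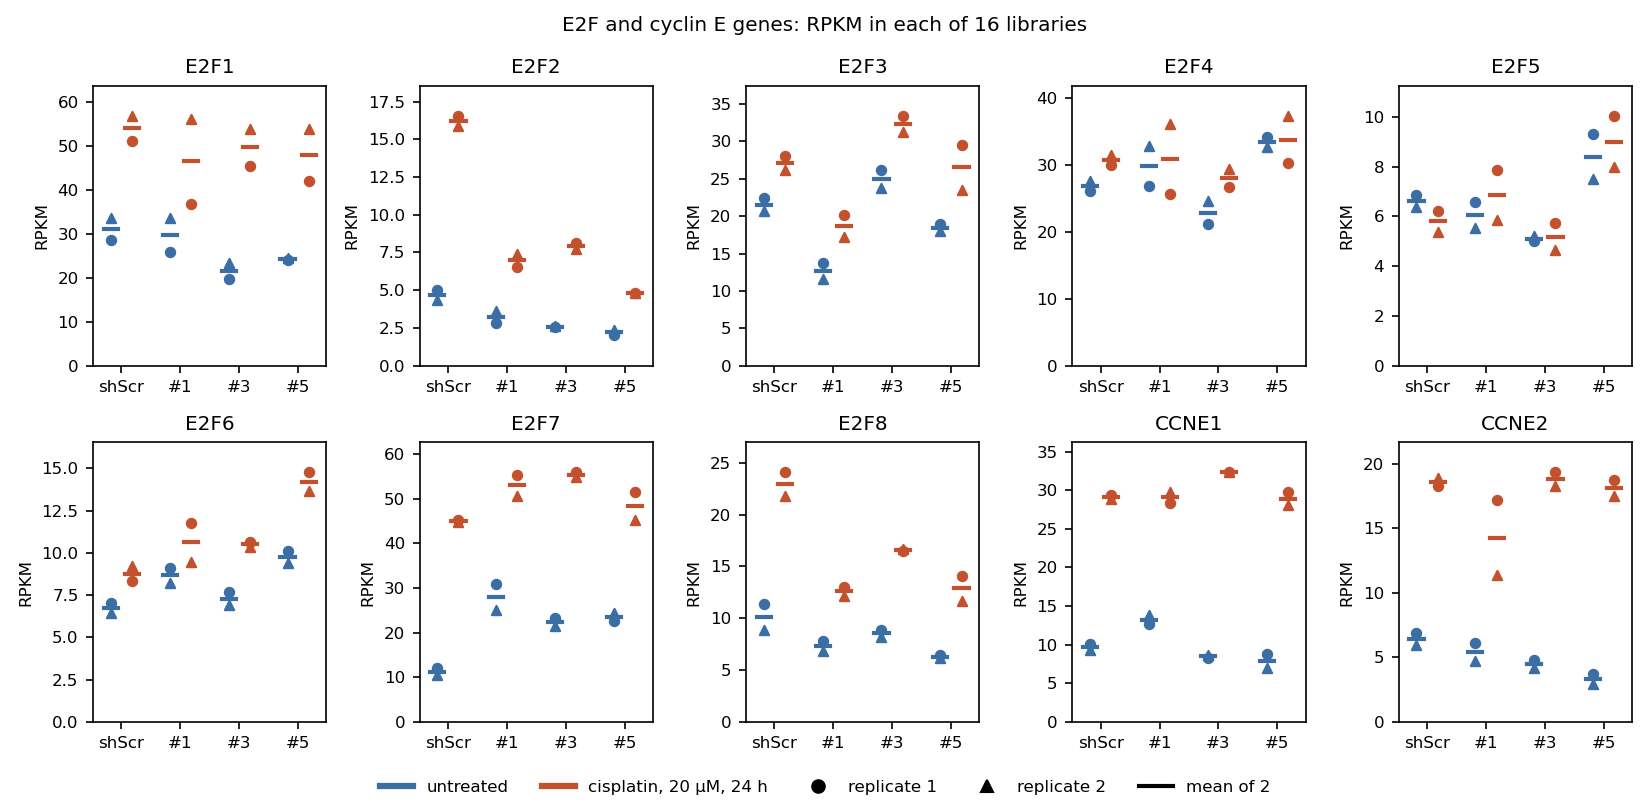
RPKM of each gene in the 16 libraries, 1 panel per gene, with the shRNA on the horizontal axis (shScr is shScramble) and RPKM on the vertical axis from 0. Points are single libraries, short lines are means of 2 and colour gives the treatment. E2F7 lies at 10.4 to 12.01 RPKM in untreated shScramble libraries and at 21.5 to 30.9 in untreated shPRMT1 libraries, and CCNE1 lies at 28.1 to 32.3 in all 8 cisplatin-treated libraries.

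In shPRMT1 cells, averaged over the 3 shRNAs, cisplatin raised 8 of the 10 genes and lowered none. Over all tested genes 54.0% were called, 30.4% higher and 23.6% lower. The 8 were the 7 of shScramble cells and E2F3, and 7 of the 8 were called with each of the 3 shRNAs alone, where 29.8%, 36.1% and 36.1% of tested genes were called with #1, #3 and #5. E2F6 was called with #3 and #5 only. CCNE2 and CCNE1 rose most in this arm, and E2F4 and E2F5 again missed the test.

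E2F1 in the 6 untreated shPRMT1 libraries had a lowest, median and highest level of 19.7, 24.3 and 33.6 RPKM, and 36.7, 49.5 and 56.1 under cisplatin. The log2 difference was 0.91 (SE 0.12, adjusted p = 5.87e-05), with no overlap. E2F2 ran from 2.06 to 3.62 RPKM (median 2.58) untreated and from 4.79 to 8.14 (median 6.997) treated, a log2 difference of 1.03 (SE 0.07, adjusted p = 3.36e-07). The highest treated E2F2 library here, 8.14 RPKM, lay well under the lowest treated shScramble library, 15.9 RPKM. E2F3 differed by 0.46 (SE 0.07, adjusted p = 0.000218) and E2F6 by 0.41 (SE 0.06, adjusted p = 0.000268). E2F4 differed by 0.11 (95% interval -0.09 to 0.31, adjusted p = 0.332) and E2F5 by 0.08 (95% interval -0.13 to 0.29, adjusted p = 0.487).

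E2F7 ran from 21.5 to 30.9 RPKM (median 23.8) in untreated shPRMT1 libraries. Under cisplatin the replicates measured 55.4 and 50.7 RPKM with #1, 55.9 and 54.9 with #3, and 51.5 and 45.1 with #5. The log2 difference was 1.06 (SE 0.06, adjusted p = 1.43e-07), so the treated level was 2.12 times the untreated mean. E2F8 differed by 0.84 (SE 0.07, adjusted p = 3.27e-06). CCNE1 differed by 1.55 (SE 0.06, adjusted p = 6.24e-09), with 28.1 to 32.3 RPKM treated against 7.02 to 13.8 untreated. CCNE2 differed by 1.74 (SE 0.10, adjusted p = 1.47e-07), with 11.4 to 19.4 RPKM against 2.96 to 6.16. Neither cyclin E gene had overlapping groups.

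**Figure D2:**
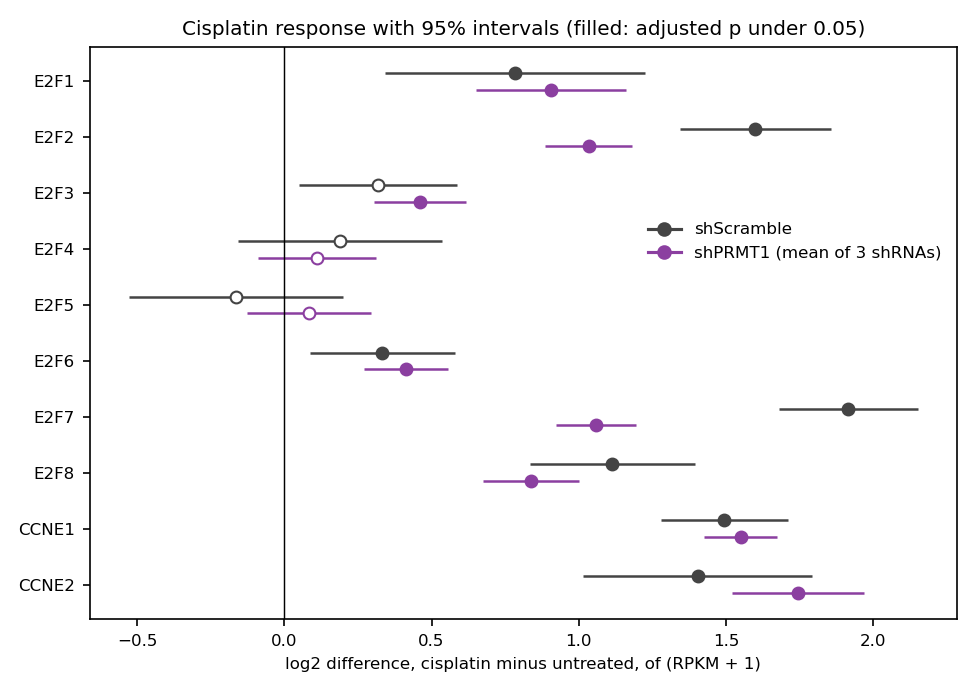
Log2 difference of RPKM + 1, cisplatin minus untreated (horizontal axis), for each gene in shScramble cells (grey) and in shPRMT1 cells as the mean of 3 shRNAs (purple). Points are estimates, bars are 95% intervals and filled points passed the test. E2F7 at 1.92 and 1.06 and E2F2 at 1.60 and 1.03 show the widest separation between the populations, and the cyclin E estimates of both populations lie between 1.40 and 1.74.

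Without drug, knockdown of PRMT1 was accompanied by more E2F7 and less E2F2 and E2F8. These 3 of 10 genes were called, 1 higher and 2 lower, where 8.24% of all tested genes were called, 4.41% higher and 3.83% lower. CCNE1 differed by -0.01 as a mean of the 3 shRNAs. The comparisons of knockdown with and without drug use different libraries, but both share theirs with the cisplatin comparisons above. In each condition all 3 shRNAs were set against the same 2 shScramble libraries, so their results are not independent of each other.

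E2F7 measured 12.01 and 10.4 RPKM in shScramble cells, 30.9 and 25.03 with #1, 23.2 and 21.5 with #3, and 22.7 and 24.5 with #5. All 6 knockdown libraries lay above both controls, at 249%, 199% and 210% of the control mean for #1, #3 and #5. The log2 difference was 1.06 (SE 0.09, adjusted p = 0.000115), and each shRNA alone was called, at 1.24, 0.94 and 1.01, where 9.09%, 8.09% and 13.4% of tested genes were called with #1, #3 and #5. E2F7 kept its call under every alternative run for this comparison. E2F8, its closest relative, went the other way. It measured 11.4 and 8.83 RPKM in controls, 7.85 and 6.81 with #1, 8.88 and 8.19 with #3, and 6.43 and 6.19 with #5. The highest knockdown library stood just above the lower control, and the log2 difference was -0.41 (SE 0.10, adjusted p = 0.0377). This call rested on few libraries: without shScramble untreated replicate 1 the difference was -0.24 (adjusted p = 0.352), and it was also lost without 5 of the 6 shPRMT1 libraries (adjusted p = 0.0597 to 0.0818). Of the shRNAs alone only #5 was called for E2F8 (-0.60, adjusted p = 0.0117).

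E2F2 measured 5.02 and 4.35 RPKM in controls, 2.81 and 3.62 with #1, 2.55 and 2.61 with #3, and 2.06 and 2.38 with #5. No knockdown library reached a control, and the means were 68.6%, 55.0% and 47.5% of the control mean. The log2 difference was -0.64 (SE 0.09, adjusted p = 0.00276), and all 3 shRNAs were called alone. Without shScramble untreated replicate 1 it was -0.55 (adjusted p = 0.0526).

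The other genes missed the test. E2F1 differed by -0.30 (adjusted p = 0.324), E2F3 by -0.24 (0.172), E2F6 by 0.30 (0.0764) and CCNE2 by -0.47 (0.0709). With the replicate number as a block these 4 were called too, at adjusted p = 0.0295, 0.00818, 0.0143 and 0.00679, which brought the count to 7 of 10, 2 higher and 5 lower, in a fit that called 20.3% of all tested genes. E2F4 differed by 0.07 (95% interval -0.21 to 0.35), E2F5 by -0.05 (-0.34 to 0.25) and CCNE1 by -0.01 (-0.19 to 0.16).

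Under cisplatin, shPRMT1 cells held less E2F2 and E2F8 and more E2F6 than shScramble cells. Again 3 of the 10 genes were called, 1 higher and 2 lower, and over all tested genes 19.8% were called, 10.4% higher and 9.36% lower. E2F7, which stood out without drug, no longer passed. Both cyclin E genes had intervals that included 0.

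E2F2 measured 16.5 and 15.9 RPKM in treated controls, 6.57 and 7.43 with #1, 8.14 and 7.72 with #3, and 4.82 and 4.79 with #5. The highest treated knockdown library, at 8.14 RPKM, lay well under the lower treated control, and the means were 43.2%, 49.0% and 29.7% of the control mean. The log2 difference was -1.21 (SE 0.09, adjusted p = 6.16e-05), and each shRNA alone was called (-1.11, -0.95 and -1.57), where 10.9%, 13.9% and 22.5% of tested genes were called with #1, #3 and #5. E2F8 measured 24.1 and 21.8 RPKM in treated controls, 13.0 and 12.1 with #1, 16.5 and 16.7 with #3, and 14.1 and 11.7 with #5. Its groups did not overlap, its log2 difference was -0.68 (SE 0.10, adjusted p = 0.00144), and each shRNA alone was called. E2F6 measured 8.32 and 9.20 RPKM in treated controls, 11.8 and 9.48 with #1, 10.7 and 10.4 with #3, and 14.8 and 13.6 with #5. Its log2 difference was 0.37 (SE 0.09, adjusted p = 0.0158) and #5 alone was called (0.64, adjusted p = 0.00287). The averaged E2F6 call was lost without shScramble cisplatin replicate 1 (0.31, adjusted p = 0.181) or 2 (0.44, adjusted p = 0.0548).

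E2F7 differed by 0.21 (95% interval 0.01 to 0.40, adjusted p = 0.127) under cisplatin, and by the same value with a replicate block at adjusted p = 0.0334, where that fit called 34.6% of all tested genes. The lowest knockdown library, #5 replicate 2 at 45.1 RPKM, lay between the controls at 45.2 and 44.8, and the other 5 lay between 50.7 and 55.9. CCNE1 differed by 0.04 (95% interval -0.13 to 0.22) and CCNE2 by -0.13 (-0.45 to 0.18). E2F1 differed by -0.18 (-0.54 to 0.18), E2F3 by -0.10 (-0.32 to 0.12), E2F4 by -0.01 (-0.29 to 0.27) and E2F5 by 0.20 (-0.09 to 0.50).

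**Figure D3:**
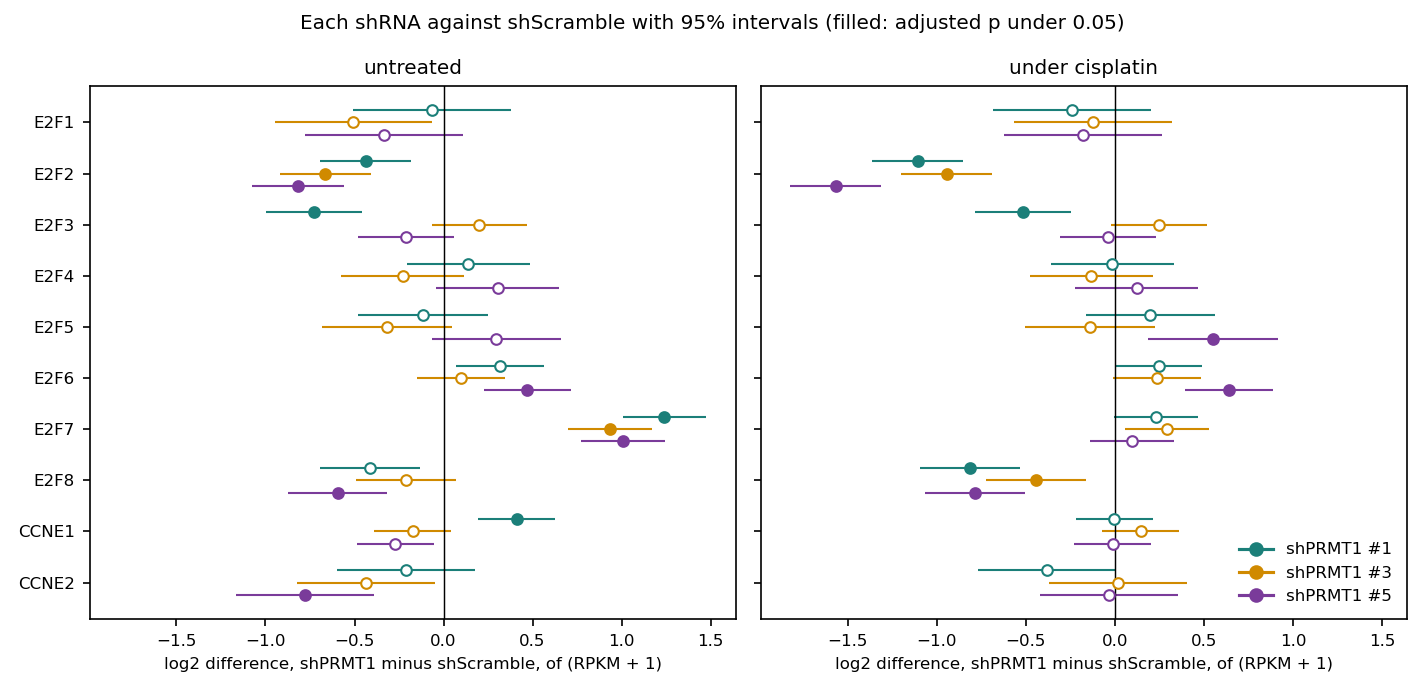
Log2 difference of RPKM + 1, each shRNA against PRMT1 minus shScramble (horizontal axis), untreated in the left panel and under cisplatin in the right, with 95% intervals. Filled points passed the test. E2F7 is filled for all 3 shRNAs in the left panel (0.94 to 1.24) and for none in the right, and E2F2 is filled for all 3 in both.

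The response to cisplatin itself differed between shPRMT1 and shScramble cells for E2F7 and E2F2, 2 of the 10 genes, both with a smaller log2 rise in shPRMT1 cells. Over all tested genes 5.19% were called, 2.08% with a larger and 3.11% with a smaller value in shPRMT1 cells. This difference is, by arithmetic, the knockdown difference under cisplatin minus the one without it, and uses the same 16 libraries.

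For E2F7 the difference of the responses was -0.86 (SE 0.12, adjusted p = 0.00442), and each shRNA was called alone, at -1.01 (adjusted p = 0.0118), -0.64 (0.0472) and -0.91 (0.0103) for #1, #3 and #5, where 1.47%, 3.21% and 3.50% of tested genes were called. On the linear scale E2F7 gained 33.2 and 34.4 RPKM in the 2 shScramble pairs of libraries, 24.4 and 25.6 with #1, 32.7 and 33.3 with #3, and 28.8 and 20.7 with #5. With #3 the gain in RPKM was thus close to the control gain, and the smaller log2 rise there went with the higher level before the drug. Under upper-quartile scaling the E2F7 difference was -0.78 (adjusted p = 0.0754). For E2F2 the difference was -0.57 (SE 0.13, adjusted p = 0.0377). E2F2 gained 11.5 RPKM in each shScramble pair and between 2.41 and 5.60 RPKM in the 6 shPRMT1 pairs, so its smaller rise held on both scales, although only #5 was called alone (-0.75, adjusted p = 0.0332). The averaged E2F2 call was lost in 11 of 16 fits that left out a library, with values from -0.65 to -0.48 and adjusted p from 0.0602 to 0.195. The libraries involved were all 4 of shScramble, all 4 of #3, and 3 of #5 (untreated replicate 2 and both cisplatin replicates).

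The remaining genes gave no call for a different response. The difference for CCNE1 was 0.06 (95% interval -0.19 to 0.30, adjusted p = 0.893) and for CCNE2 0.34 (-0.11 to 0.79, adjusted p = 0.426). E2F8 gave -0.28 (-0.60 to 0.05), E2F1 0.12 (-0.39 to 0.63), E2F3 0.14 (-0.17 to 0.45), E2F4 -0.08 (-0.48 to 0.32), E2F5 0.25 (-0.17 to 0.67) and E2F6 0.08 (-0.21 to 0.36). For E2F1, E2F5 and CCNE2 these intervals are wide enough to hold differences above 0.6.

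The balance between atypical and activating factors was also read in each library, as a ratio of RPKM sums with no test. E2F7 plus E2F8 divided by E2F1 plus E2F2 plus E2F3 was 0.330 and 0.419 in untreated shScramble libraries and 0.674 and 0.724 after cisplatin. In the 6 untreated shPRMT1 libraries it was 0.598 at the lowest, 0.658 at the median and 0.914 at the highest, above both untreated controls and overlapping the treated ones. After cisplatin the 6 ran from 0.693 to 1.08 (median 0.806). E2F7 divided by E2F8 was 1.05 and 1.18 in untreated controls, 1.88 and 2.06 in treated controls, 2.61 to 3.95 in untreated shPRMT1 libraries and 3.29 to 4.24 in treated ones. On this ratio every shPRMT1 library, treated or not, lay above every shScramble library. E2F2 divided by E2F1 was 0.130 and 0.176 in untreated controls, 0.280 and 0.324 in treated controls, 0.086 to 0.130 in untreated and 0.089 to 0.180 in treated shPRMT1 libraries.

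**Figure D4:**
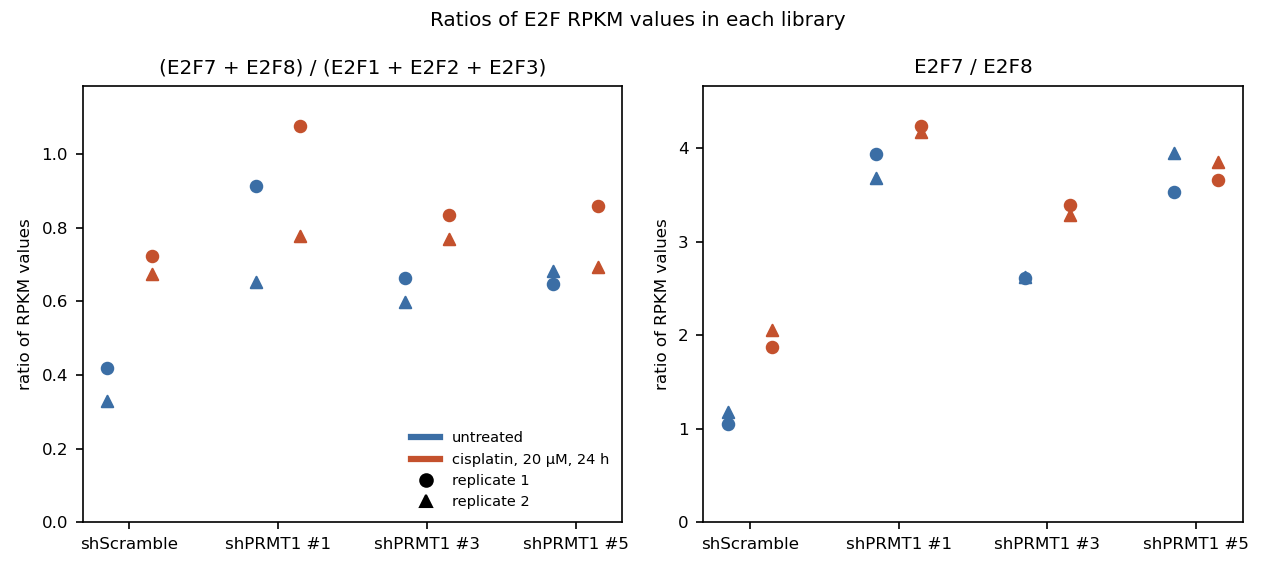
Ratio of RPKM sums in each library, with E2F7 plus E2F8 over E2F1 plus E2F2 plus E2F3 in the left panel and E2F7 over E2F8 in the right. The horizontal axis gives the shRNA, colour the treatment and the marker the replicate number. Untreated shPRMT1 libraries lie at 0.598 to 0.914 on the left axis against 0.330 and 0.419 in controls, and at 2.61 to 3.95 on the right axis against 1.05 and 1.18.

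Against shScramble, E2F1, E2F2 and E2F8 were lower and E2F6 and E2F7 higher with all 3 shRNAs as point estimates, both with and without drug. The other genes differed in sign between shRNAs in at least 1 condition. The 3 estimates of a condition share the same shScramble libraries, so a deviating control would move all of them the same way. Of 60 tests of 1 shRNA against another, a comparison added once the levels were known, 14 passed, 5 of them for E2F3. Of all tested genes 10.03% were called between #1 and #3, 16.02% between #1 and #5 and 14.40% between #3 and #5 without drug, and 4.623%, 7.786% and 6.998% under cisplatin. PRMT1 differed from shScramble by -1.67 with #1, -1.86 with #3 and -1.24 with #5 without drug.

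E2F3 measured 13.7 and 11.6 RPKM with #1, 26.1 and 23.7 with #3, and 19.0 and 18.0 with #5, against 22.4 and 20.6 in untreated controls. Against shScramble E2F3 was called lower with #1 (-0.73, adjusted p = 0.00543, and -0.51, adjusted p = 0.0227, under cisplatin), while #3 gave 0.20 and 0.25 and missed the test. The difference between #1 and #3 was -0.93 (adjusted p = 0.000967) without drug and -0.76 (adjusted p = 0.0067) with it. The averaged value for E2F3 therefore joins shRNAs that differ from each other. CCNE1 without drug was 12.6 and 13.8 RPKM with #1, 8.28 and 8.68 with #3, and 8.80 and 7.02 with #5, against 10.1 and 9.26 in controls. It was called higher with #1 (0.41, adjusted p = 0.0273), and #1 differed from #3 by 0.58 (adjusted p = 0.00381) and from #5 by 0.68 (adjusted p = 0.00125). After cisplatin the 8 CCNE1 libraries of all populations lay within 28.1 to 32.3 RPKM.

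CCNE2 without drug was called lower with #5, at 3.72 and 2.96 RPKM (-0.78, adjusted p = 0.0153). No test between shRNAs was passed for CCNE2, E2F1, E2F7 or E2F8. E2F5 was at 10.03 and 7.97 RPKM with #5 under cisplatin, called higher than in controls (0.55, adjusted p = 0.0354), and #3 and #5 differed for it by -0.62 (adjusted p = 0.0300) without drug and by -0.69 (adjusted p = 0.0312) with it. E2F6 was called higher with #5 without drug as well (0.47, adjusted p = 0.0189). E2F2 was lower with #5 than with #1, by 0.38 (adjusted p = 0.0478) without drug and 0.46 (adjusted p = 0.0370) with it, and lower than with #3 under cisplatin by 0.62 (adjusted p = 0.0105). E2F4 differed between #3 and #5 without drug by -0.53 (adjusted p = 0.0444).

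Genes that work with these factors were read from 7 lists, which were chosen with earlier results of these data known. In shScramble cells cisplatin raised 22 of 35 E2F target genes of the G1 to S transition and lowered none, where 15.5% of all tested genes were called higher and 14.7% lower. The list median was a log2 difference of 0.46 against -0.01 over all tested genes. DTL, the substrate receptor of a replication-coupled ubiquitin ligase, rose by 1.43 (SE 0.11). CLSPN, the checkpoint adaptor claspin, rose by 1.39 (SE 0.11), MCM10, a replication initiation factor, by 1.21 (SE 0.09), and CDC6, which loads the replicative helicase, by 1.03 (SE 0.09). In shPRMT1 cells, where 30.4% of all tested genes were called higher and 23.6% lower, 27 of the 35 rose and 1 fell, POLA1, the catalytic subunit of DNA polymerase alpha, which fell by 0.72. Its response differed between the populations by -0.92 (SE 0.13, adjusted p = 0.00391).

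Without drug 9 of the 35 targets were lower and none higher in shPRMT1 cells as a mean of the 3 shRNAs, where 3.83% of all tested genes were called lower and 4.41% higher, with a list median of -0.17 against 0.00 over all tested genes. Among them were the helicase subunits MCM3 (-0.36) and MCM4 (-0.35) and thymidylate synthase TYMS (-0.40). The averaged MCM3 and MCM4 values rested on #3 and #5. With #1, MCM3 measured 58.6 and 55.4 RPKM against 59.5 and 57.5 in controls, and MCM4 35.7 and 33.6 against 35.6 and 34.2. Under cisplatin 11 of the 35 were lower and none higher, where 9.36% of all tested genes were called lower and 10.4% higher, with a median of -0.15 against 0.02. Among them were POLA1 (-1.004, adjusted p = 9.76e-05), CDC45 (-0.44), a helicase cofactor, and POLA2 (-0.37), a further subunit of DNA polymerase alpha. For the difference of responses, 2.08% of all tested genes were called larger and 3.11% smaller in shPRMT1 cells. Of the 35, 2 were called larger there, MCM4 (0.30) and MCM3 (0.22), and POLA1 smaller. Neither MCM gene rose more with #1 than in controls. Under cisplatin MCM3 measured 64.1 and 62.8 RPKM with #1 against 67.5 and 65.6 in controls, and MCM4 41.7 and 41.5 against 44.3 and 42.6. Of the 30 target genes with a promoter window, 17 held an 8-base E2F form in at least 1 window and 26 a 7-base form. The shares of all promoters given above count single windows, so they are a different measure.

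Among the retinoblastoma and DP genes, cisplatin in shScramble cells lowered RBL2, which encodes the E2F4 partner p130, from 24.3 ± 2.70 RPKM to 12.1 ± 0.97 (SD over 2 libraries each), which is -0.95 on the log2 scale (SE 0.11, adjusted p = 7.49e-05). TFDP2, a DP subunit, fell by 0.73 and TFDP1, the main DP subunit, rose by 0.19 (adjusted p = 0.0295). Thus 1 of the 5 tested genes of this list rose and 2 fell. Over all tested genes 15.5% were called higher and 14.7% lower. RB1 stood at 38.0 and 37.9 RPKM (means with and without drug), and RBL1, which encodes p107, gave 0.36 (adjusted p = 0.0832). For knockdown under cisplatin, 1 of the 5 tested genes of this list was called, RBL1, at -0.50 (adjusted p = 0.0122). None was called for knockdown without drug. Over all tested genes 19.8% were called for knockdown under cisplatin and 8.24% without drug.

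Of the 10 genes around CDK2, 4 rose and 1 fell with cisplatin in shScramble cells, where 15.5% of all tested genes were called higher and 14.7% lower. CDKN1A, the CDK inhibitor p21, averaged 7.44 ± 0.19 RPKM untreated and 44.7 ± 2.55 treated (SD over 2 libraries each), which is 2.43 on the log2 scale. CDC25A, the phosphatase that activates CDK2, rose by 1.66 and CDK2 by 0.59, while CDKN1B, the inhibitor p27, fell by 0.51. The activator and an inhibitor of the cyclin E kinase thus rose side by side. Without drug, where 4.41% of all tested genes were called higher and 3.83% lower, CDC25A was higher (0.68, adjusted p = 0.000736) and cyclin A1, CCNA1, lower (-0.55, adjusted p = 0.00128) in shPRMT1 cells, with no overlap between groups. CDKN1A and CDK2 were called on the mean of the 3 shRNAs, but not all shRNAs shared the difference. CDKN1A (0.55, adjusted p = 0.0138) measured 12.1 and 16.04 RPKM with #1 and 13.5 and 15.1 with #5, but 6.66 and 7.87 with #3, against 7.58 and 7.30 in controls. CDK2 (-0.40, adjusted p = 0.0130) measured 7.81 and 7.82 RPKM with #3, but 23.2 and 20.97 with #1 and 22.9 and 21.2 with #5, against 22.2 and 20.2 in controls. Under cisplatin, where 19.8% of all tested genes were called, only CDC25A (0.49) and CDKN1B (0.29) of this list were called, both higher. CCNA1 had the only called difference of responses in this list, 0.44 (adjusted p = 0.0317), where 5.19% of all tested genes were called.

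Of 11 genes listed for the degradation of cyclin E and E2F proteins or its control, 1 rose with cisplatin in shScramble cells. This was FBXO5 (0.60), an inhibitor of the anaphase-promoting complex. Over all tested genes 15.5% were called higher and 14.7% lower. For knockdown none of the 11 was called, where 8.24% of all tested genes were called without drug and 19.8% under cisplatin. FBXW7, the F-box protein that marks cyclin E for destruction, gave 0.27 for cisplatin in shScramble cells (adjusted p = 0.103). Against the same shares for cisplatin in shScramble cells, 4 of 10 genes of the E2F6 repressor complex rose. PCGF6 at 0.75 and RYBP at 0.63 rose most. Of 6 tested cyclin D kinase and INK4 genes, CDK6 rose by 0.66, CDKN2C fell by 0.48 and 4 were not called. Over all tested genes 30.2% were called in that comparison. FOXM1, a mitotic transcription factor of the MuvB list, differed by -0.44 in untreated shPRMT1 cells (adjusted p = 0.00297). It was the 1 gene called of 7 tested in that list, where 8.24% of all tested genes were called.

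**Figure D5:**
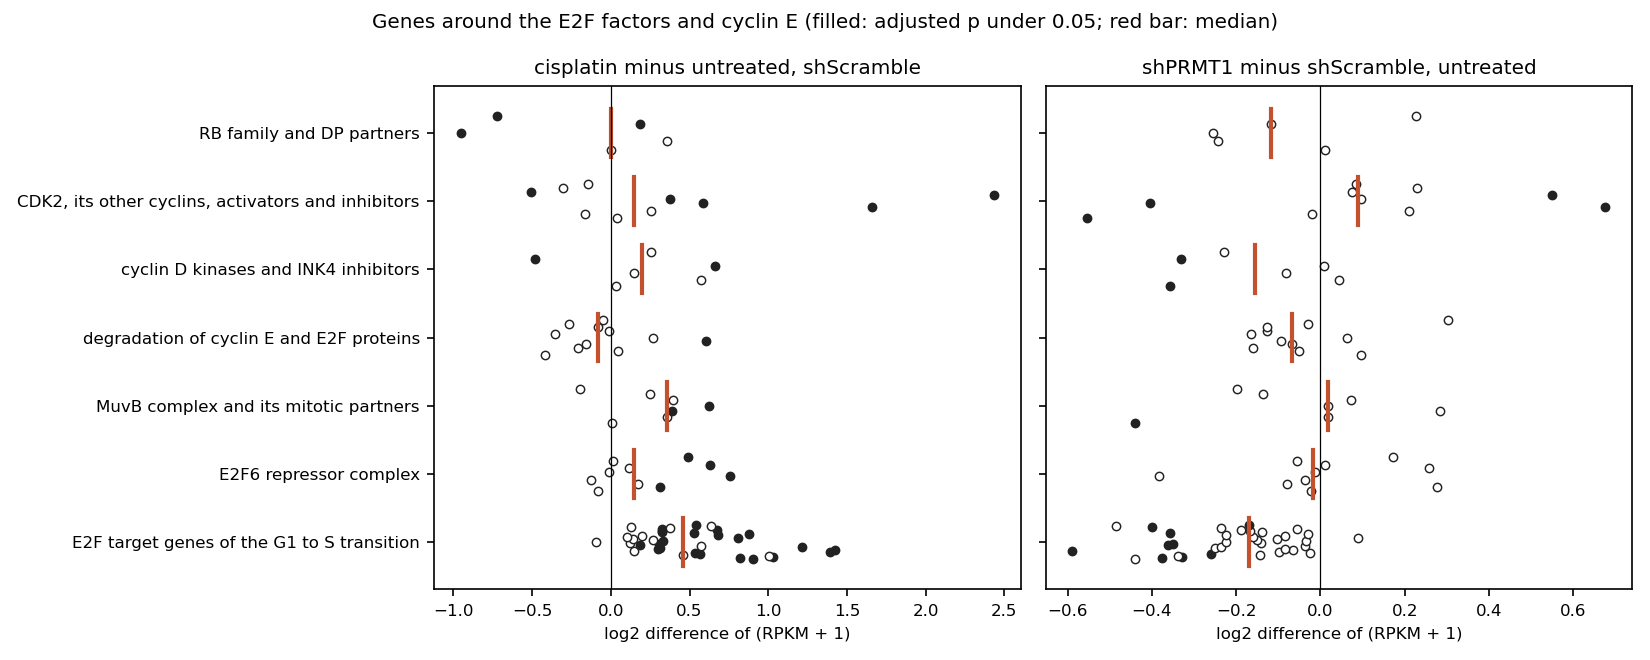
Log2 difference of RPKM + 1 (horizontal axis) of each tested gene in 7 lists, for cisplatin in shScramble cells on the left and for knockdown without drug on the right. Filled points passed the test and red bars are list medians. In the bottom row 22 of 35 E2F target genes are filled to the right of 0 on the left and 9 are filled to the left of 0 on the right.

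Genes whose log2 levels followed each member most closely over the 16 libraries were ranked by the root mean square distance of centred values among the 10072 genes whose mean reached 5 RPKM. CCNE1 was nearest to CLSPN (0.137), EXO1 (0.138), a DNA exonuclease, and the phosphatase gene DUSP4 (0.176). CCNE2 was nearest to EXO1 (0.193), CLSPN (0.251) and CCNE1 (0.253). E2F2 was nearest to RIBC2 (0.192), then to E2F8 (0.298) and ORC1 (0.299), a subunit of the origin recognition complex. E2F7 was nearest to CD55 (0.176), a complement regulator, and the phosphatase gene DUSP5 (0.179), followed by CDC25A (0.235). For scale, the standard deviation of the member over the same libraries was 0.820 for CCNE1, 0.900 for CCNE2, 0.773 for E2F2 and 0.752 for E2F7. E2F4, which varied least (0.212), was nearest to PMF1 at 0.0741. E2F1 lay nearest to TNFAIP2 (0.139), E2F3 to RASSF8 (0.154), E2F5 to RP5-857K21.7 (0.0956), E2F6 to CASP4 (0.0723) and E2F8 to LMO7 (0.163). The standard deviations of these members were 0.507, 0.401, 0.279, 0.305 and 0.558, in the same order. The libraries share treatment and shRNA, so a small distance describes this design only.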

How the data were processed

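The authors deposited 1 table of linear RPKM values for 57820 genes in 16 libraries, per the file headers. Per the labels' protocols, the library kit was TruSeq RNA v2. The submitters' processing notes name HISAT2, DESeq2 and the builds GRCh37 and mm9, without role or version. The sources used here name no counting program, annotation release or handling of duplicate reads. Gene coordinates are those of the table, on GRCh37.

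Whole reads were recovered from the steps of the RPKM values for 40649 of 40649 genes above 0 (tolerance 0.0001 reads), which gave the library totals. limma 3.58.1 in R 4.3.3, with a trended prior, was fitted to log2(RPKM + 1) of 18149 genes that reached 1 RPKM in 2 or more of the libraries, as 8 group means over all 16 libraries. The log2 scale understates changes of low genes. Benjamini-Hochberg adjustment ran over all tested genes of a comparison, with 0.05 as the threshold for a call. Intervals are 95% and not adjusted. The p-values rest on 1 spread per gene, pooled from the differences between replicates within all 8 groups and moderated by the prior. For averaged comparisons that spread leaves out the differences between the 3 shRNAs. The labels call the replicates biological without further detail. The fit was also run on simulated reads that held no shared replicate difference and no difference between shRNAs. That run does not cover these features of the data. Medians, ratios and gains in RPKM were computed in Python 3.11.15.

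The genes, the lists and the comparisons were chosen with earlier results of these data known. All 10 members are named throughout. Of each list, up to 4 called genes with the lowest adjusted p in a comparison are named, apart from some that are not reported here, and CDKN1A, CDKN1B, CDK2, RB1, RBL1, RBL2, TFDP1 and FBXW7 where useful. RBL1 and CKS1B have 2 rows each, of which the row with the identifier of the reference table was used. The difference between replicates 1 and 2 correlated across genes in 28 of 28 pairs of groups (0.30 to 0.70). Replicate numbers were paired for the gains in RPKM. The fits behind the main calls had no term for the replicate number, although this difference was shared. Fits with that number as a block appear where they change a call. Alternatives were another pseudocount (0.1), no filter and a filter at 5 RPKM, median-of-ratios and upper-quartile scaling, the replicate block, voom on the recovered reads, fits of only the groups compared, and each library left out in turn. Promoter windows came from RefSeq.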

Additional observations from a re-analysis of the deposited data

Results flagged for a closer look

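Within arms of 6 shPRMT1 libraries, 20 sets of values were screened for a library that stands apart, a screen in which chance marks about 1 in 20. E2F7 without drug was marked for #1 replicate 1, at 30.9 RPKM, where the gap to the next library was 0.6253 of the range against a critical value of 0.625. CCNE2 under cisplatin was marked for #1 replicate 2, at 11.4 RPKM, with a gap of 0.726 of the range. CCNE2 of the same shRNA and treatment in replicate 1 measured 17.2 RPKM. Both sets join 3 shRNAs.

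A different response to cisplatin between shPRMT1 and shScramble cells, tested as the difference itself, was found for E2F7 as a mean (-0.86) and with #1 (-1.01), #3 (-0.64) and #5 (-0.91) alone. The same test marked E2F2 as a mean (-0.57) and with #5 alone (-0.75).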

How the results depend on the processing

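Counts of called members for cisplatin in either population and for knockdown under cisplatin stayed within 1.5 times of those reported in every alternative run. For knockdown without drug the count of 3 became 7 with the replicate block, in a fit that called 20.3% of all tested genes, and with a library left out it ran from 1 to 3, at 1 without shScramble untreated replicate 1. For the difference of responses the count of 2 became 1 with a pseudocount of 0.1, without a filter or with voom, and 0 with upper-quartile scaling, where limma gave 2 of the 10 genes an unadjusted p under 0.05. With a library left out it ran from 1 to 2. A fit of only the groups compared was not run for that difference, since it uses all groups. In the 5 averaged comparisons the replicate block changed no call of a member other than those given above, and it was not run for single shRNAs.

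Of 390 values of single genes under alternatives that keep all libraries, 367 kept direction and side of the threshold, as did 444 of 480 with a library left out. CCNE1 changed sign for knockdown under cisplatin with median-of-ratios scaling (-0.00756) and for knockdown without drug with upper-quartile scaling (0.00201). E2F4 changed sign for knockdown under cisplatin with upper-quartile scaling (0.0741). With a library left out, 5 values ranged across 0: CCNE1 for knockdown without drug (-0.0702 to 0.0472), CCNE1 for the difference of responses (-0.00368 to 0.114), E2F4 for knockdown under cisplatin (-0.0865 to 0.0719), E2F4 for the difference (-0.158 to 0.000639) and E2F5 for knockdown without drug (-0.0920 to 0.0017). Upper-quartile scaling moved the median of all tested genes for cisplatin in shPRMT1 cells from 0.04 to 0.16, and E2F4 then passed there (0.26, adjusted p = 0.00553). The E2F2 difference of responses had adjusted p = 0.111 with a pseudocount of 0.1, 0.0675 with voom, 0.0514 without a filter and 0.0988 with upper-quartile scaling. The E2F8 decrease without drug had 0.0544 with median-of-ratios and 0.213 with upper-quartile scaling, 0.0576 without a filter and 0.110 with only the groups compared. The E2F6 rise in shScramble cells had 0.0634 without a filter, 0.107 with upper-quartile scaling and 0.102 with only the groups compared, and the E2F6 knockdown difference under cisplatin 0.0722 with only the groups compared. The causes were not tested.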

Other observations

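Several members differed between replicate numbers in the same way in nearly every group. E2F1 was higher in replicate 2 in 8 of 8 groups, and E2F3 was higher in replicate 1 in 8 of 8. E2F5, E2F6, E2F7, E2F8 and CCNE2 were higher in replicate 1 in 7 of 8 groups, and E2F4 in 1 of 8. E2F2 and CCNE1 were higher in replicate 1 in 4 of 8. What set the replicate numbers apart is not given in the labels.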
